A study of Homo sapiens with 2 samples.

Results

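The genes described here encode the enzymes and carriers of glucose import, glycolysis, lactate export and the pentose phosphate pathway, with the kinases that gate pyruvate entry into mitochondria. They were taken from a list of 40 gene symbols, found by the symbols that the deposited tables give, and 40 of the 33629 genes named in either library were on it. The cells were LM3, an established line of human liver cancer, and poly-A RNA was read in 1 wild-type library and 1 library whose label says that NCOA5 was knocked out. NCOA5 encodes a nuclear receptor coregulator, and the study asked about epithelial-to-mesenchymal transition, proliferation and migration after its loss. The knockout title carries the number 1, no other knockout culture was analysed here, and no treatment is named for either group. Each genotype has 1 library, so no test could be run, and every difference below compares these libraries without a replicate check.

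Glycolysis splits glucose into pyruvate in the cytosol: hexokinases trap the sugar, phosphofructokinases commit it, and pyruvate kinase yields the final ATP. Lactate dehydrogenase turns pyruvate into lactate, which leaves the cell through monocarboxylate transporters, while pyruvate dehydrogenase kinases hold pyruvate back from mitochondria. The pentose phosphate pathway draws off glucose 6-phosphate to make NADPH and ribose, and many tumours, liver tumours among them, use these routes heavily. Adult hepatocytes carry their own forms of several steps, such as GLUT2 and the liver pyruvate kinase.

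The deposited values were FPKM, a read density scaled to transcript length and library size, and stood beside every listed start, end or splicing event of a transcript. A gene's level was the larger of its summed starts and its summed ends, and ratios (log2, knockout-labelled over wild type) were taken after adding 1 FPKM to each level, so ratios of low genes are drawn towards 0. Sequencing depth was unknown. NCOA5 itself had 20.03 FPKM in the wild-type library and 25.4 FPKM in the knockout-labelled one (log2 ratio 0.33), so its total level was not lower where the label says knockout. Of the 10 hepatocyte markers, KRT8 (2094 and 2217 FPKM), KRT18 (831 and 846 FPKM) and APOH (39.4 and 42.6 FPKM) were high in both libraries. ALB stood at 1.41 and 2.92 FPKM, and APOA1 at 0.168 and 0.161 FPKM, so defining markers of mature hepatocytes were near 0. Summed leukocyte markers (4 genes, 2 of them, CD68 and CD3E, at 0 in both) stood at 0.958 and 1.91 FPKM and endothelial markers (3 genes, none at 0) at 1.37 and 1.25 FPKM. Fibroblast markers (5 genes, PDGFRB at 0 in the knockout-labelled library) summed to 15.2 and 28.8 FPKM, of which LUM, a proteoglycan, gave 14.0 and 27.2 FPKM and COL1A1 0.0698 and 0.0156 FPKM; the part of such cells in the values below was not tested. In bulk RNA, fewer cells of a type and less RNA per cell cannot be told apart.

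The pathway was highly expressed in both libraries, and its levels differed little between them. The 40 genes summed to 12788 FPKM in wild type, 2.63% of the summed FPKM of all genes, and to 11804 FPKM, or 2.46%, in the knockout-labelled library. HKDC1, at 42.4 FPKM in wild type, has no listed level in the knockout-labelled library and adds nothing to that second total. GAPDH ranked 6 among all genes in wild type and 8 in the other library, and PKM ranked 28 and 31. At least 100 FPKM was reached by 15 of the genes in wild type and by 14 in the knockout-labelled library. At the other end, 4 genes stayed under 1 FPKM in both libraries, ENO3 and PDK1 were listed at 0 in both, and HKDC1 had no event in the knockout-labelled table, which left 33 with a ratio.

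**Figure D1:**
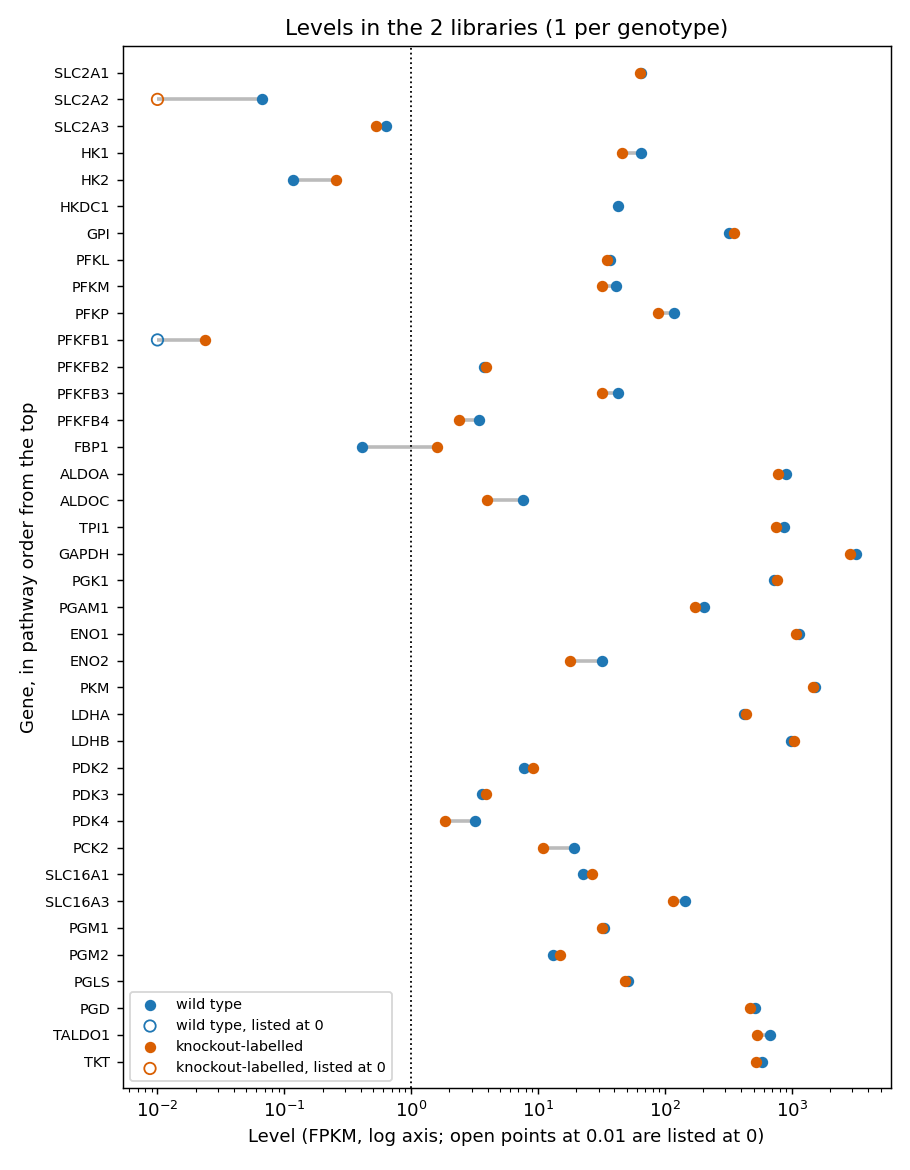
Level of each gene in FPKM on a log axis, in pathway order, with 1 point per library and the wild-type and knockout-labelled points joined by a line; ENO3 and PDK1, listed at 0 in both, are not drawn. GAPDH is highest at 3181 and 2855 FPKM, most pairs of points lie close together, and the widest gap among genes over 1 FPKM in either library is that of FBP1 at 0.409 and 1.59 FPKM.

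Of the 33 measured genes, 0 were higher and 0 were lower by 2-fold or more, where 2.46% and 3.41% of all 10734 measured genes were. The ratios ran from -0.81 to 0.88 with a median of -0.13, against a median of 0.01 over all measured genes. A ratio below 0 was found for 23 of the 33 (69.7%), where 48.6% of all measured genes had one. By 1.2-fold or more, 11 genes were lower (33.3%, all genes 19.8%) and 1 was higher (3.03%, all genes 19%). The other 21 lay within 1.2-fold. With a threshold of 1.5-fold, 3 were lower (all genes 7.79%) and 1 was higher (all genes 6.12%). Of the genes with at least 100 FPKM in the larger library, 11 of 15 were below 0 (73.3%, all such genes 54.4%). At that level 3 were lower by 1.2-fold or more (20%, all such genes 16.5%) and 0 were higher (all such genes 12.2%). These counts describe the libraries, since the genes share the same pair of samples.

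**Figure D2:**
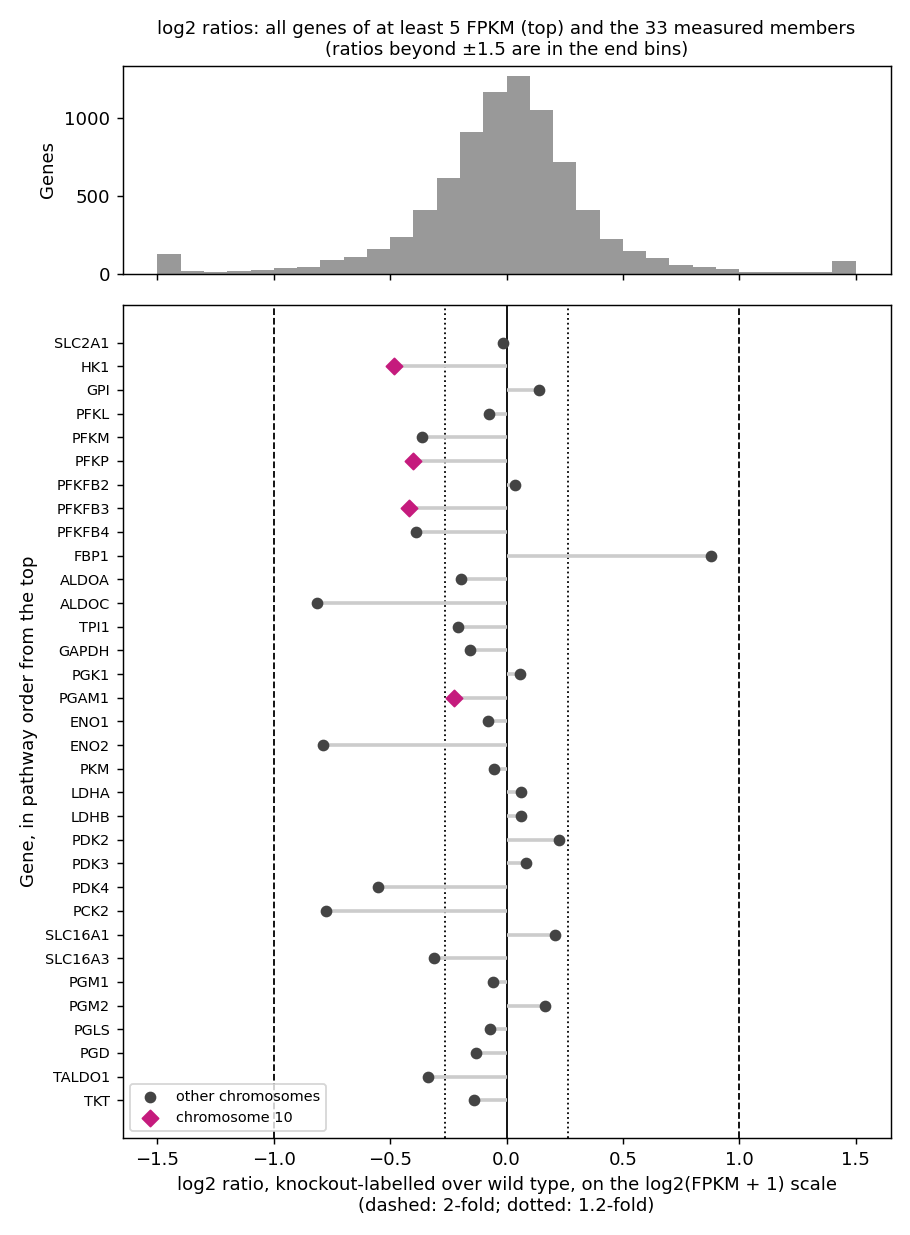
Top, number of genes of at least 5 FPKM in each bin of the log2 ratio of knockout-labelled over wild type, with ratios beyond 1.5 in either direction placed in the end bins; bottom, the log2 ratio of each of the 33 genes in pathway order, with chromosome 10 genes as diamonds, dashed lines at 2-fold and dotted lines at 1.2-fold. Of the 33 points, 23 lie left of 0, ALDOC, ENO2 and PCK2 lie furthest left and FBP1 alone lies past the right dotted line.

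Of the 3 glucose transporters in the list, SLC2A1, which encodes GLUT1, the basal glucose transporter of most tumours, gave nearly all the RNA. SLC2A1 (ENSG00000117394.21, chromosome 1, 42925375 to 42959176, minus strand; coordinates here and below are on hg38) had 64.2 FPKM in the wild-type library and 63.5 FPKM in the knockout-labelled one (log2 ratio -0.02). It held 98.9% and 99.2% of the summed level of these 3; outside the list, SLC2A8, an intracellular transporter, stood at 32.7 and 33.8 FPKM, a gene chosen after its values were seen. Its wild-type level rests on transcript ends, because the listed starts summed to 21.6 FPKM there and to 63.5 FPKM in the other library; from starts alone the ratio would be 1.52. SLC2A3, the GLUT3 of neurons, was at 0.627 and 0.525 FPKM, and SLC2A2, the GLUT2 of hepatocytes, at 0.067 FPKM in the wild-type library and at 0 in the other.

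Hexokinase RNA came from HK1, the form bound to mitochondria in most tissues, and in wild type also from HKDC1, a related enzyme. HK1 (ENSG00000156515.23, chromosome 10, 69269984 to 69401884) was lower in the knockout-labelled library, at 46.1 against 64.9 FPKM (log2 ratio -0.48). HKDC1 (ENSG00000156510.12, chromosome 10, 69220303 to 69267559), the neighbour just upstream, stood at 42.4 FPKM in wild type, 39.5% of the hexokinase level. In the knockout-labelled table both genes share 1 locus, and no start or end at an HKDC1 boundary is listed, so its level there is unknown rather than 0. Whether the shared locus affected the HK1 level in that library, and so its ratio, was not tested. HK2, the form that many tumours induce, was at 0.117 and 0.258 FPKM, which is under the minimum in both libraries.

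GPI, which isomerises glucose 6-phosphate, was slightly higher in the knockout-labelled library, at 351 against 318 FPKM (log2 ratio 0.14). The phosphofructokinase isozymes, which catalyse the committed step, were led by PFKP, the platelet form. PFKP stood at 117 and 88.5 FPKM (log2 ratio -0.40), the muscle form PFKM at 41.1 and 31.7 FPKM (log2 ratio -0.36) and the liver form PFKL at 36.7 and 34.8 FPKM (log2 ratio -0.07). In a line of liver origin, the platelet form therefore made up 60.1% and 57.1% of the summed level, and the liver form 18.8% and 22.5%. The order of the 3 forms was PFKP, PFKM, PFKL in wild type and PFKP, PFKL, PFKM in the other library, where PFKL and PFKM were close.

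The PFKFB enzymes make and remove fructose 2,6-bisphosphate, the activator of phosphofructokinase. PFKFB3, the form with the highest kinase relative to phosphatase activity, held 85.6% and 83.5% of their summed level, at 42.6 and 31.7 FPKM (log2 ratio -0.42). PFKFB4 was also lower in the knockout-labelled library, at 2.39 against 3.43 FPKM (log2 ratio -0.39), while PFKFB2 stood at 3.74 and 3.86 FPKM (log2 ratio 0.04). PFKFB1, the liver form, was listed at 0 for wild type, against 0.0239 FPKM in the other library. FBP1, which reverses the phosphofructokinase step in gluconeogenesis, had the highest ratio of all 33 genes, 0.88, at 1.59 against 0.409 FPKM in the wild-type library; its levels were low in both libraries. Without the pseudocount its values differed 3.89-fold, and with a pseudocount of 0.1 its ratio was 1.73.

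The aldolase and enolase steps showed the same layout, a dominant isozyme with close levels and a minor isozyme with a larger difference. ALDOA, the ubiquitous aldolase, stood at 899 and 784 FPKM (log2 ratio -0.20) and held 99.2% and 99.5% of aldolase RNA. ALDOC, the brain aldolase (ENSG00000109107.13, chromosome 17, 28573115 to 28577264, minus strand), stood at 7.67 and 3.94 FPKM, the lowest ratio of all 33 genes at -0.81. ENO1, the ubiquitous enolase, was at 1149 and 1086 FPKM (log2 ratio -0.08). ENO2, the neuronal enolase (ENSG00000111674.8, chromosome 12, 6913745 to 6923698), was at 31.8 and 18.0 FPKM (log2 ratio -0.79), and the muscle enolase ENO3 was listed at 0 in both libraries. ENO2 lies close to TPI1 and GAPDH on chromosome 12, whose ratios were -0.21 and -0.16.

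The remaining steps from TPI1 to PKM differed by less than 1.2-fold between the libraries. TPI1, which interconverts the triose phosphates, stood at 862 and 746 FPKM, and GAPDH, the oxidative step, at 3181 and 2855 FPKM. PGK1, the earlier ATP-yielding step, was at 729 and 759 FPKM (log2 ratio 0.06), and PGAM1, a mutase, at 202 and 173 FPKM (log2 ratio -0.23). PKM, the pyruvate kinase of most non-liver tissues, stood at 1517 and 1463 FPKM (log2 ratio -0.05). From GAPDH to PKM, with PCK2 6 of 7 measured genes had ratios below 0, with a median of -0.16. From glucose import to TPI1, FBP1 included, the count was 10 of 13, with a median of -0.21. GENCODE 29 names 106 pseudogenes after 13 of the 40 genes, 62 of them after GAPDH. Of these copies 7 are listed, and 0 have a value above 0 in either library. Whether reads of such copies entered the levels of the genes was not tested.

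In lactate and pyruvate handling, 2 of 7 ratios were below 0 (28.6%, all measured genes 48.6%), with a median of 0.06. LDHB, the heart form of lactate dehydrogenase, stood at 992 and 1035 FPKM and LDHA, the muscle form, at 420 and 439 FPKM, with a log2 ratio of 0.06 for each. LDHA over LDHB was 0.423 in wild type and 0.424 in the other library, so the form known for favouring lactate production was the lesser RNA in both. Of the pyruvate dehydrogenase kinases, PDK2 stood at 7.69 and 9.18 FPKM (log2 ratio 0.23), PDK3 at 3.60 and 3.87 FPKM (log2 ratio 0.08) and PDK4, the form induced in fasting, at 3.19 and 1.86 FPKM (log2 ratio -0.55). The signs of PDK2 and PDK3, both above 0 in that count, depended on which events were used. PDK2 had -0.37 from its largest event but 1.16 from its ends alone (2.02 and 5.74 FPKM). PDK3 had -0.21 from its ends alone and -0.17 from its largest event. PDK1, the hypoxia-induced kinase, was listed at 0 in both libraries.

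SLC16A3, which encodes the lactate exporter MCT4, was lower in the knockout-labelled library, at 116 against 145 FPKM (log2 ratio -0.31). SLC16A1, which encodes MCT1, a carrier that works in both directions, stood at 22.7 and 26.4 FPKM (log2 ratio 0.21). SLC16A3 over SLC16A1 was therefore 6.37 in wild type and 4.41 in the other library, and MCT4 RNA made up 86.4% and 81.5% of the pair. BSG, the chaperone that both carriers need at the membrane, was at 408 and 347 FPKM (log2 ratio -0.23); it is outside the 40 genes and was chosen after its values were seen.

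PCK2, the mitochondrial enzyme that makes phosphoenolpyruvate from oxaloacetate (ENSG00000100889.11, chromosome 14, 24094053 to 24110598), was lower in the knockout-labelled library, at 10.9 against 19.4 FPKM (log2 ratio -0.78). In each library its summed starts and summed ends were within 5% of each other. The phosphoglucomutases, which link glycogen to glycolysis, had 33.1 and 31.7 FPKM for PGM1 and 13.1 and 14.9 FPKM for PGM2.

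All 4 pentose phosphate genes of the list had ratios below 0, with a median of -0.14. TALDO1, the transaldolase, differed most, at 668 and 528 FPKM (log2 ratio -0.34). TKT, the transketolase, was at 578 and 524 FPKM (log2 ratio -0.14), and PGD, which makes NADPH from 6-phosphogluconate, at 516 and 470 FPKM (log2 ratio -0.13). PGLS, the lactonase, was at 50.7 and 48.2 FPKM (log2 ratio -0.07).

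The other genes of these routes did not share the low median. Of 56 such genes, 34 were measured, 16 of them below 0 (47.1%, all measured genes 48.6%), with a median of 0.02. By 2-fold or more, 1 was higher (all measured genes 2.46%) and 0 were lower (all measured genes 3.41%). The higher gene was PDHA1, the catalytic subunit of pyruvate dehydrogenase, at 38.2 and 89.8 FPKM (log2 ratio 1.21). Its ends were at 0 for wild type, against 38.6 FPKM in the other library, so its level rests on starts. TIGAR, which degrades fructose 2,6-bisphosphate, stood at 8.93 and 16.8 FPKM (log2 ratio 0.84). GALM, a mutarotase, was at 21.8 and 14.8 FPKM, and SLC2A6, a lysosomal transporter, at 7.29 and 4.75 FPKM, each with a log2 ratio of -0.53. The liver-type enzymes PKLR and G6PC were listed at 0 in both libraries. PCK1, the cytosolic counterpart of PCK2, was at 0.127 and 0.0187 FPKM. These liver genes were picked out after their values were seen; the RNA measured for their steps came from other isozymes.

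Regulators of the pathway had 15 of 21 measured ratios below 0 (71.4%, all measured genes 48.6%), with a median of -0.13 (all measured genes 0.01). By 1.2-fold or more, 3 were lower (14.3%, all measured genes 19.8%) and 2 were higher (9.52%, all measured genes 19.0%). SRSF3, a splicing factor known to act on PKM, had the largest ratio, at 71.4 and 173 FPKM (log2 ratio 1.27), but its ends gave 0.58. ESRRA, a nuclear receptor of energy metabolism, stood at 41.2 and 30.1 FPKM (log2 ratio -0.44). EGLN1, the main oxygen sensor that marks HIF1A for degradation, stood at 31.4 and 42.9 FPKM (log2 ratio 0.44), and its ends at 19.2 and 42.9 FPKM gave 1.12. HIF1A itself, chosen after its values were seen, was at 84.4 and 70.3 FPKM (log2 ratio -0.26).

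Hypoxia-induced genes of the list are those that textbooks name as raised under low oxygen by HIF1. Of the 19 measured, 16 had ratios below 0, with a median of -0.20, and of the 14 other genes 7 did, with a median of -0.02. All measured genes stood at 48.6% and 0.01. The difference between the groups was not tested. All 4 measured genes on chromosome 10, described below, are in the hypoxia group; without them 12 of 15 had ratios below 0, with a median of -0.08. SLC2A1, PGK1, GPI and LDHA, all in the hypoxia group, lay between -0.02 and 0.14, so the low ratios were not shared by every member of it.

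HIF1 binds the core ACGTG, and the E-box CACGTG, which contains that core, is bound by factors such as MYC, MAX and the MLX family. RefSeq promoter windows on GRCh38.p14, from 250 bases before to 50 bases after each start, were found for 37 of the 40 genes, 69 windows in all. ACGTG on either strand occurred in 23 of the 69 (33.3%), in 17 of the 43 windows of hypoxia-induced genes (39.5%) and in 6 of the 26 others (23.1%), against 21.4% of 35116 windows of that length. CACGTG occurred in 8 of the 69 (11.6%), against 7.26% of all. Genes with several windows had more chances of a match. By gene, ACGTG occurred in a window of 19 of the 37 genes, against 6790 of 27305 genes in all. It did so for 14 of 21 hypoxia-induced genes and 5 of 16 others. Some windows lie far from any listed start, such as the PFKM windows with a match, at 13745 and 13873 bases. A match is a description of letters and not a bound site. The windows of the 3 genes with the lowest ratios are shown, since they differ in this respect, each as the 250 bases before the RefSeq start, 5′ to 3′ on the gene's strand, with ACGTG or its reverse complement CACGT in capitals. They lie at chr17:28576896-28577145 (minus strand) for ALDOC, chr12:6914330-6914579 (plus strand) for ENO2 and chr14:24094061-24094310 (plus strand) for PCK2.
ALDOC: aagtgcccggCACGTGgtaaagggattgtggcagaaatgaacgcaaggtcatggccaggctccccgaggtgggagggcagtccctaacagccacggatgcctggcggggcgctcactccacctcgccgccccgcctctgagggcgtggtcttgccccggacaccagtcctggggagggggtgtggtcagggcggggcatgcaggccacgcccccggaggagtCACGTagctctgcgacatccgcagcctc
ENO2: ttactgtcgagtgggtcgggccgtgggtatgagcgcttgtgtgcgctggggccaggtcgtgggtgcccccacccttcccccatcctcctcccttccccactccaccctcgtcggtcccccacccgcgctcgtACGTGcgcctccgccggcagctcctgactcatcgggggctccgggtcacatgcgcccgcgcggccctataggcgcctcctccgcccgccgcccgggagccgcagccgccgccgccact
PCK2: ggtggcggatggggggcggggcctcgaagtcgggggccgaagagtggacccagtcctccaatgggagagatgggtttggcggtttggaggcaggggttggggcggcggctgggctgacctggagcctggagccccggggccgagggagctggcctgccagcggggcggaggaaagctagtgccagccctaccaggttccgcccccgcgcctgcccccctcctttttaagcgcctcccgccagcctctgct
ALDOC has 3 matches, of which the upstream pair overlap in 1 CACGTG palindrome and the other lies 28 bases before the start. ENO2 has 1 match, 118 bases before the start, and PCK2 has 0 in its window. The only ALDOC start above 0 in the deposited tables lies 10 bases from the RefSeq start. For ENO2 the nearest lies 253 bases away, upstream, so the ENO2 window shown falls inside the first exon that the tables list. For PCK2 a minor start lies 10 bases away, but the main start begins at 24094138, so most of the PCK2 window also falls inside a listed first exon.

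Genes of chromosome 10 as a whole had lower ratios, and 4 of the measured pathway genes lie there. Over all measured genes of chromosome 10, 302 of 409 had ratios below 0 (73.8%), with a median of -0.19, against a median of 0.02 elsewhere. HK1, PFKP, PFKFB3 and PGAM1 were all below 0, with a median of -0.41. Measured genes within 5 Mb of HK1 had a median of -0.22 (52 genes) and those around PGAM1 a median of -0.25 (70 genes), which was lower than PGAM1 itself at -0.23. Around PFKP the median was -0.10 (25 genes) and around PFKFB3 -0.06 (19 genes), so those genes stood further below 0 than their neighbours. Off chromosome 10, 19 of 29 genes were below 0 (65.5%, all measured genes there 47.6%), with a median of -0.07. Of those 29, 8 were lower by 1.2-fold or more (27.6%, all measured genes there 19.0%). With the chromosome 10 genes included the median was -0.13. For the genes with the lowest ratios, neighbours of ALDOC had a median of 0.05, of PCK2 0.04 and of ENO2 -0.05. Because these genes were picked by their low ratios, a gap to their neighbours follows from that choice.

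**Figure D3:**
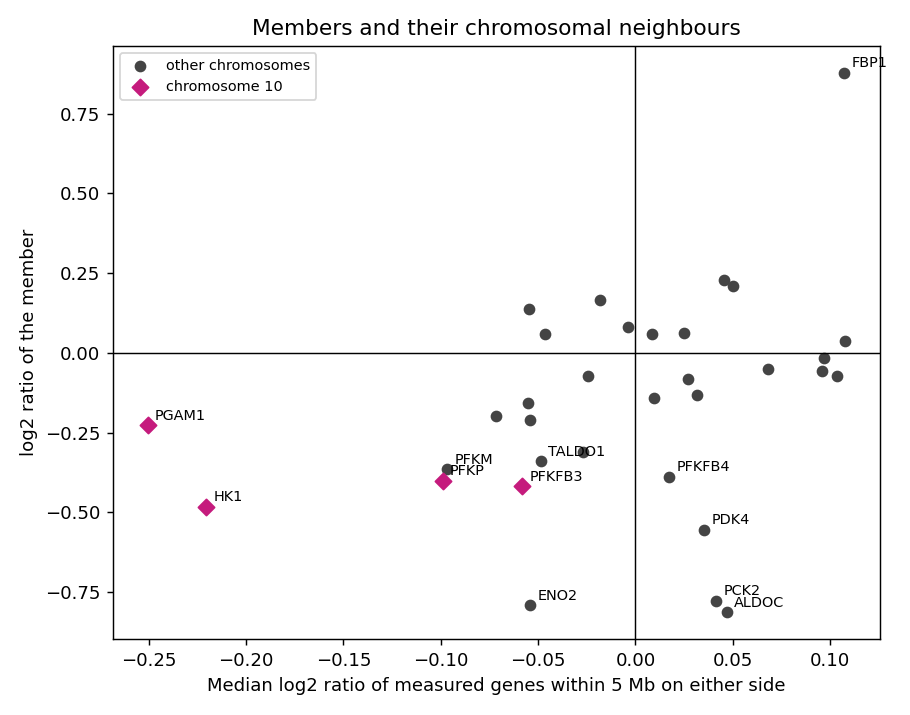
Log2 ratio of each of the 33 genes (vertical axis) against the median log2 ratio of the measured genes within 5 Mb on either side (horizontal axis), with chromosome 10 genes as diamonds. HK1 and PGAM1 lie far left, with neighbour medians of -0.22 and -0.25, while ALDOC, PCK2 and ENO2 lie lowest with neighbour medians between -0.05 and 0.05.

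Transcript forms were compared through the share of an event in the level of its gene or of both its forms, for 150 forms of 27 genes with at least 5 FPKM in each library. Of these, 115 stood at 0% or at 100% in both libraries, where only 1 form was listed above 0. Of the 35 others, 21 forms of 9 genes differed by 10 percentage points or more, 15 of them starts. Where a pair of forms competes, both are counted, with mirrored differences such as -24.1 and 24.1 percentage points for the PGK1 starts. The number of separate changes is therefore smaller than 21. No share over the forms of all genes is available here to set beside these counts. FPKM of forms is an estimate that divides shared reads, so a value of 0 can be a failed estimate, and no share has an error here.

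Among genes over 100 FPKM, PGK1 had the largest shift of a start that is above 0 in both libraries. Its upstream start (chromosome X, junction at 78065272) gave 509 and 346 FPKM, 69.7% and 45.6% of its level. The first exon listed for that junction begins at 78065176 in wild type and at 78065188 in the other library. The downstream start (exon 78104174 to 78104405) gave 221 and 413 FPKM, so the leading start differed between the libraries while the totals were close. ALDOA used 3 starts with stable shares of 18.6% and 16.4%, 28.5% and 32.9%, and 52.9% and 50.7%, from upstream to downstream. The most upstream of them (exon 30053090 to 30053217) lies ahead of the gene ENSG00000149925.18, which is annotated from 30064164. Its junction is not at a GENCODE 29 exon boundary of ALDOA. GPI used 2 starts at 38.1% and 39.1% for the upstream one. SLC16A1 also had 2, at 10.1 and 10.9 FPKM upstream and 12.6 and 15.5 FPKM downstream.

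Other start differences involved an event listed at 0 in 1 library. GAPDH had starts at 1617 and 1979 FPKM and at 793 and 876 FPKM, and another whose listed first exon is only 3 bases long, at 771 FPKM for wild type alone and 0 in the other library. Leaving that one aside, both longer starts were higher in the knockout-labelled library, while the GAPDH total was lower. PFKM had a downstream start at 12.6 FPKM for wild type, 30.8% of its level, with 0 in the other library, while the upstream start had 28.5 and 31.7 FPKM. The lower PFKM total thus rests on the downstream start. PFKFB3 had the opposite layout: an upstream start at 0 for wild type and 7.08 FPKM, or 22.3%, in the other library, beside a main start at 42.6 and 24.6 FPKM. ENO2 and PCK2 each had a minor start in wild type alone, at 13.7% and 14.0% of the level. Their main starts were also lower in the knockout-labelled library, at 27.4 and 18.0 FPKM for ENO2 and 16.6 and 10.9 FPKM for PCK2. PDK2 had 1 start in wild type at 7.69 FPKM and 3 in the other library, at 2.29, 4.07 and 2.81 FPKM.

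**Figure D4:**
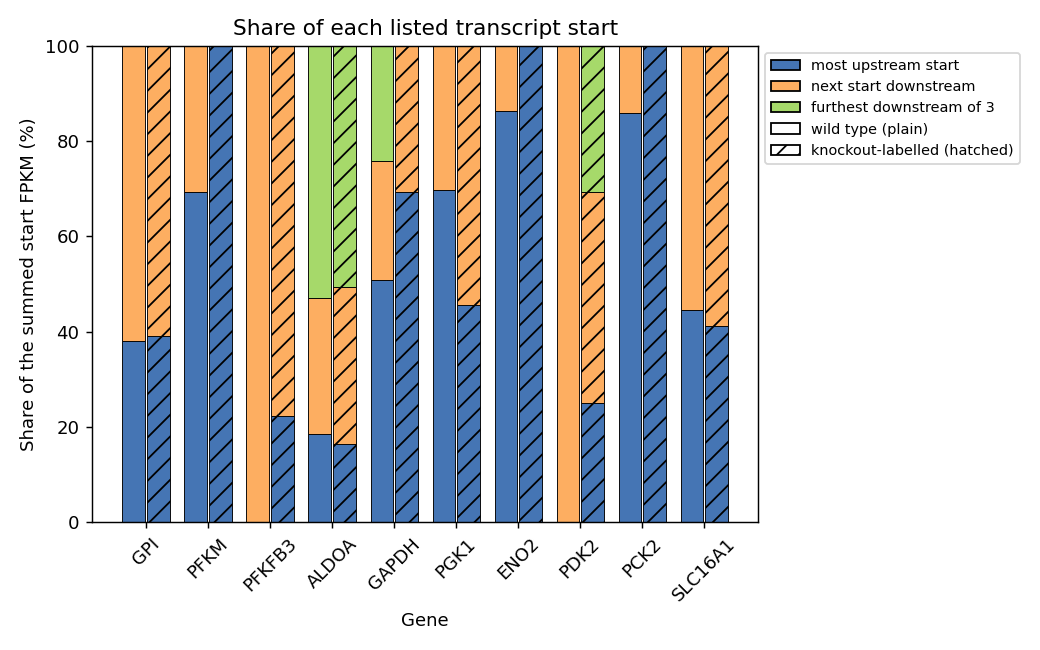
Share of each listed transcript start in the summed start FPKM of its gene, in percent, for 10 genes with several starts; plain bars are wild type and hatched bars the knockout-labelled library, stacked from the most upstream start at the bottom. Shares in GPI, ALDOA and SLC16A1 are close in both libraries, PGK1 goes from 69.7% to 45.6% upstream, and PFKM, GAPDH, ENO2 and PCK2 lack a start in the hatched bars.

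Pyruvate kinase M has a pair of mutually exclusive exons, M1 and M2, of which M2 is the form typical of tumours and fetal tissue. They lie on chromosome 15 at 72203022 to 72203188 (M1, exon 9) and 72202454 to 72202620 (M2, exon 10), each 167 bases long. No listed event sets these exons against each other, and the few events that touch them are at 0 in both libraries. The only PKM start above 0 has its junction at 72231116, where 6 GENCODE 29 transcripts begin, 4 with the M2 exon and 0 with the M1 exon. The share of M2 therefore was not measured here, and the annotation of that start does not show which exon was used.

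Of 48 comparisons of a skipped exon, 43 were at 0% or at 100% in both libraries, and of the 5 others 2 differed by 10 percentage points or more, in ALDOA and PCK2. The exon of ALDOA at 30055172 to 30055327 on chromosome 16 lies in the form from the most upstream start and was in 0% of it in wild type and 100% in the other library, at 167 and 129 FPKM in all. Like that start, the exon lies ahead of the annotated gene, which begins at 30064164. In SLC2A1, on the minus strand, the 241-base exon that begins at 42930866 in GENCODE was also listed in a 315-base version. That version begins at 42930940 and had 0 for wild type and 24.0 FPKM, 37.9% of the level, in the other library. ENO2 had an exon version beginning at 6915818 that made up 16.2% in wild type and 0% in the other library.

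Coding exons skipped in part of the transcripts are shown with their sequence, because what a skipped exon removes depends on its length and letters. They were read from GENCODE 29 transcripts, 5′ to 3′ on the gene's strand, and GPI was added after its values were seen. Exon 9 of PCK2, at chr14:24103160-24103255 (plus strand), is 96 bases long, or 32 codons, so leaving it out keeps the reading frame. Exon 5 of GPI, at chr19:34377503-34377586 (plus strand), has 84 bases and 28 codons, so its loss also keeps the frame.
PCK2 exon 9: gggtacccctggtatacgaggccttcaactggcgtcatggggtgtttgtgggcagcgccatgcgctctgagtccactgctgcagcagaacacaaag
GPI exon 5: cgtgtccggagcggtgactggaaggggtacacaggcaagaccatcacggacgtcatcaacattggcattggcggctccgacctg
PCK2 forms with exon 9 made up 82.2% in wild type, at 15.9 FPKM with it and 3.45 FPKM without it, and 100% in the other library. GPI forms with its exon made up 92.6% and 100%. Neither exon's full sequence occurs in transcripts of another gene of the 57133 in the transcript set. LDHA forms with its 124-base exon at 18405449 to 18405572 on chromosome 11 made up 79.4% and 72.9%, a difference under 10 percentage points.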

How the data were processed

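LM3 cells gave 1 RNA library per genotype, and the labels' genotype set the groups. Per the file headers, the authors deposited FPKM, with 1 value for every listed start, end or splicing event. The submitters' processing notes name hg38 and Bowtie 0.12.2 without a role. Not given in the sources used here are the program behind the events, its annotation and filters, and whether strand was used. The tables hold FPKM without read counts, so depth is unknown, and neither intervals nor floors were computed.

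Events of loci with several genes went to the gene whose GENCODE 29 exon boundary lies at their junction; the share left unassigned was 2.51% for wild type and 2.48% for the other library. A gene was measured where it had an event in both libraries and at least 1 FPKM in the larger. It was called by size alone, at 2-fold. Genes named were all 40 members, NCOA5, and of the other lists those past 2-fold and the 4 largest ratios in size among genes of at least 5 FPKM; of forms, PKM and those differing by 10 percentage points. A few genes and sequences within this rule are left unreported. The members, lists, thresholds and tests were chosen with earlier results of these data known. Alternatives were other pseudocounts, minimums, thresholds, gene values and scalings, agreeing sums, and, added after seeing the data, leaving out chromosome 10 and taking unlisted genes as 0. Python 3.11.15, numpy 2.4.6, pandas 2.3.3 and matplotlib 3.10.9 were used, and the procedure was tested on simulated data.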

Additional observations from a re-analysis of the deposited data

How the results depend on the processing

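The median ratio of the measured genes stayed between -0.16 and -0.07 under all alternatives run. The count higher by 2-fold became 1 with a pseudocount of 0.1, with starts alone, with ends alone and with TPM scaling, and 1 with a threshold of 1.5-fold. The count lower became 1 where unlisted genes were taken as 0 (HKDC1) and 3 at 1.5-fold. Ratios below 0 numbered 11 of 17 from ends alone and 9 of 13 among genes whose start and end sums agree within 5%, and 4 were lower by 1.2-fold in each of those, where fewer genes could be measured. The median of the other pathway genes reversed to -0.0178 from ends alone and to -0.0771 among agreeing sums; the cause was not tested. Of 322 ratios of single members under alternatives, 311 stayed within 0.1. SLC2A1 reversed to 1.52 from starts alone and to 0.00444 with TPM scaling, PDK2 to -0.37 from its largest event, and PDK3 to -0.21 from ends alone and -0.17 from its largest event. Forms differing by 10 percentage points numbered 18 at a minimum of 10 FPKM, with both forms of a pair counted. The share of PKM exon 10 gave no value under either choice. No paired analysis was possible because each genotype has 1 library, and no replicate could be left out. Depth is unknown, so low genes such as FBP1 have no stated precision.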
